A study of Mus musculus with 8 samples.

Results

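Core macrophage markers and the lysozymes were examined in macrophages sorted from mouse mammary tumours, with and without deletion of E2f3. The set was a fixed list of 10 genes: Adgre1, Cd68, Cd14, Mpeg1, Ms4a7, Aif1, Lyz1, Lyz2, Laptm5 and Tyrobp. All 10 were represented on the array, by 17 probe sets annotated with exactly 1 gene symbol, out of 18193 genes and 34945 such probe sets. Each gene was represented by its probe set with the highest mean over the 8 arrays, and every other probe set is given beside it.

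The mice were FVB animals of 80 days carrying PyMT, a viral oncogene whose expression gives rise to mammary tumours. The tumour macrophages had been sorted by flow cytometry for F4/80, and RNA from the sorted cells was read on Affymetrix arrays. Both groups were homozygous for a floxed E2f3 allele (E2f3 f/f), in which Cre recombinase can cut the gene. The control group (PyMT;E2f3 f/f, 4 arrays, replicates B, C, D and G) carried no Cre recombinase. The E2f3-deleted group (PyMT;Lys Cre:E2f3 f/f, 4 arrays, replicates A, E, F and H) also carried Lys Cre, a recombinase driven from the lysozyme gene and active in myeloid cells. No group carried Lys Cre without the floxed E2f3 allele, so deletion of E2f3 and the presence of Cre cannot be told apart. The labels do not say which lysozyme-Cre line was used, how many copies of it the mice carried, or whether each array came from a separate animal. The p-values therefore reflect the spread among these arrays, part of which may be technical.

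The genes mark macrophages in different ways. F4/80 and CD14 sit on the cell surface, the first an adhesion receptor and the second a binding protein for bacterial endotoxin that hands it to Toll-like receptor 4. TYROBP, also called DAP12, is an adaptor that carries the signal of receptors without a signalling tail of their own. CD68 and LAPTM5 lie in endosomes and lysosomes, perforin-2 (Mpeg1) forms pores in engulfed bacteria, IBA1 (Aif1) binds actin and calcium, and lysozymes cut the bacterial cell wall.

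The 8 arrays had median log2 signals between 5.65 and 5.69. The mean correlation of an array with the others of its group was 0.994 to 0.995 in controls and lower on every E2f3-deleted array, at 0.983 to 0.991. Values within a group share correlations and are not independent, so no p-value is given for them. Replicate H had the lowest, and it enters the value of the other 3. For E2f3 itself the 4 controls lay between 7.58 and 7.83 and the 4 E2f3-deleted arrays between 7.53 and 7.79 (log2 signal). The difference was −0.05 (SE 0.082, 95% confidence interval −0.24 to 0.14; limma, adjusted p = 0.812), and since the removed stretch of the gene is not named in the labels, this probe set does not check them. Letters in the scan file names differ from those in the titles, and grouping by them would swap control B with E2f3-deleted array F.

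All 10 genes passed the filter on low signals (a mean log2 signal of at least 5.998). In the E2f3-deleted macrophages 9 of the 10 had a difference below 0 and 1, Cd14, above 0, with a median of −0.09 log2 units. Over the 10916 genes tested, 58.7% had a difference below 0 and the median was −0.03. None of the 10 passed the threshold of an adjusted p under 0.05 in limma, nor did any of the 10916 genes tested on all 8 arrays (0%; 753 were lower and 794 higher at an unadjusted p under 0.05). That last count depended on single arrays: 60 genes passed without replicate E and 14 without replicate H, none of them among the 10. At an unadjusted p under 0.05 there were 2 of the 10, Cd68 and Adgre1, both lower, beside 6.9% of all genes tested that were lower by that rule. Adgre1 was not among them without control B (limma, unadjusted p = 0.0535). In the same 2 genes the arrays of the groups did not overlap, beside 4.22% of all genes that were lower without overlap. Bulk RNA of sorted cells cannot tell fewer macrophages in the sort from less RNA of a gene per macrophage.

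**Figure D1:**
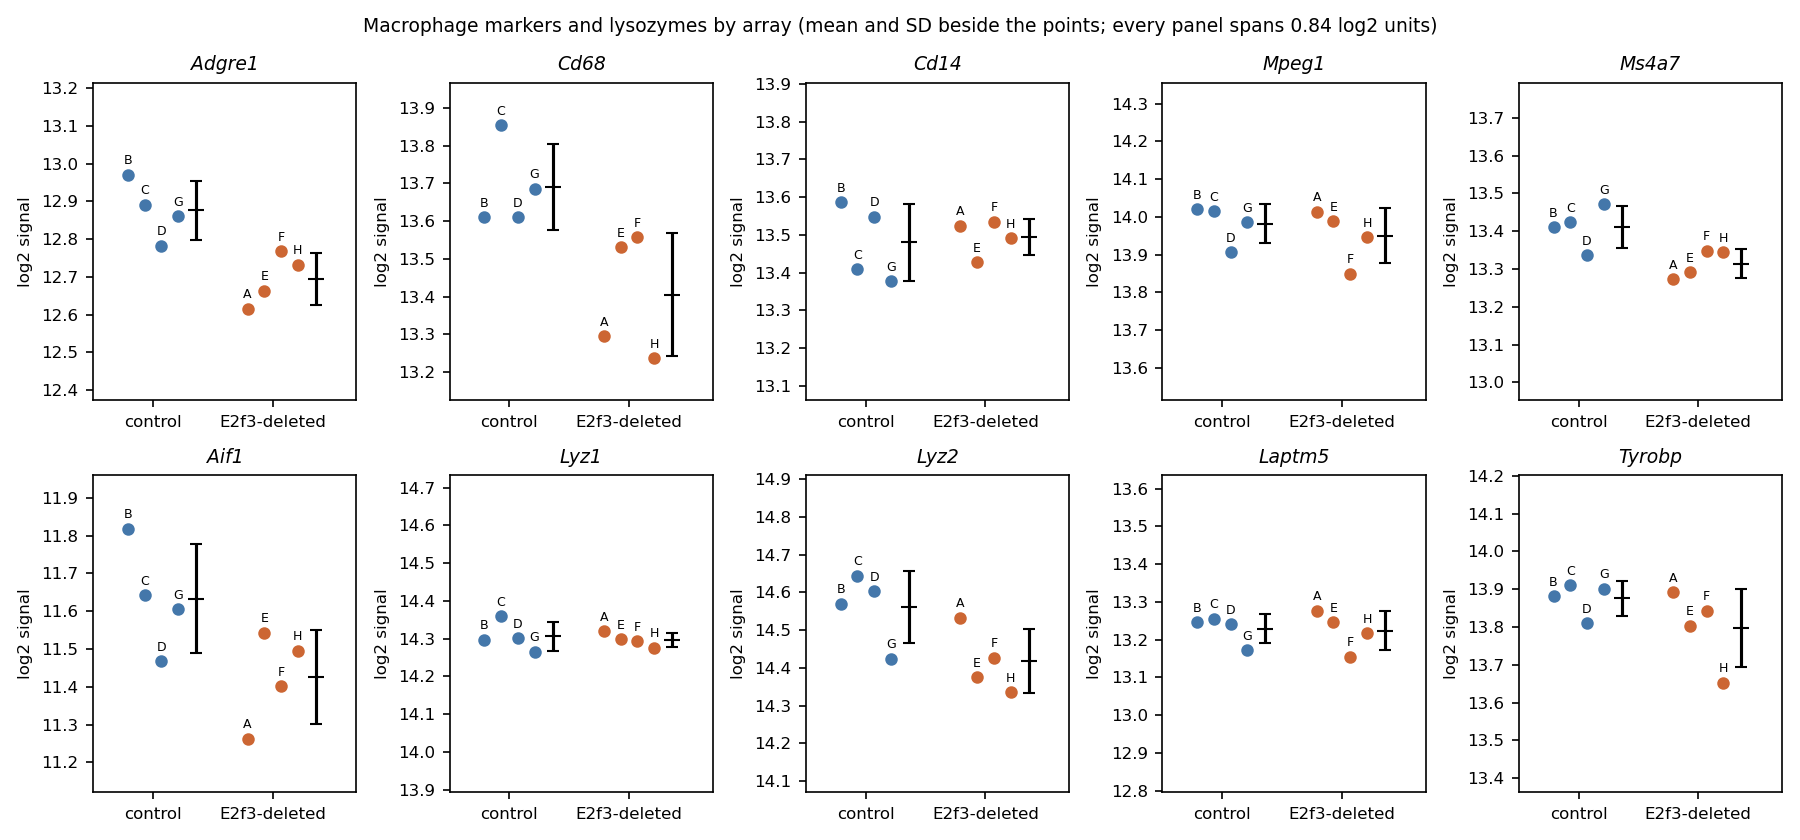
Log2 signal of the 10 genes on each array (points, labelled with the replicate letter; blue, control; orange, E2f3-deleted), with the mean and SD of each group of 4 beside the points and the same span of 0.84 log2 units in every panel. The groups are separate for Adgre1 and Cd68 and overlap in the other 8 genes; the signals of Lyz1 and Laptm5 hardly spread.

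Adgre1 encodes F4/80, the antigen the cells were sorted on. Its log2 signals in controls B, C, D and G were 12.97, 12.89, 12.78 and 12.86. On E2f3-deleted arrays A, E, F and H they were 12.62, 12.66, 12.77 and 12.73. All 4 E2f3-deleted arrays were below all controls, but control D and E2f3-deleted F were almost level. The difference was −0.18 (SE 0.061, 95% confidence interval −0.32 to −0.04; limma, adjusted p = 0.275), a signal 11.8% lower on the linear scale. With single arrays left out it ranged from −0.21 to −0.15. Its relatives had wider errors: Adgre5, the CD97 receptor, had a value of −0.09 (SE 0.185) and Adgre4 one of 0.09 (SE 0.509).

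Cd68, a heavily glycosylated protein of late endosomes and lysosomes, had the difference farthest from 0 among the 10. Its log2 signals were 13.61, 13.85, 13.61 and 13.69 in controls B, C, D and G, and 13.30, 13.53, 13.56 and 13.24 on E2f3-deleted arrays A, E, F and H. The E2f3-deleted arrays lay in a low pair, A and H, and a higher pair, E and F, just under the lowest controls. The difference was −0.29 (SE 0.095, 95% confidence interval −0.50 to −0.07; limma, adjusted p = 0.274), or 17.9% lower on the linear scale. Without replicate H it was −0.23, and without control C also −0.23. A list of LAMP proteins, related to Cd68, and LAPTM proteins, related to Laptm5, had 4 of 7 genes that passed the filter. Of these, 3 had values above 0 and 1 below, beside 58.7% of all genes below 0. Lamp1 had a difference of −0.02 (SE 0.047) and Lamp2 of 0.05 (SE 0.057). Among the relatives of Laptm5, Laptm4b had a difference of 0.31 (SE 0.170) and Laptm4a, like Laptm4b a membrane protein of endosomes and lysosomes, of 0.07 (SE 0.072).

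The promoter of Cd68 is shown because this gene had the difference farthest from 0 and the deleted factor binds promoters. The stretch covers the 250 bases before the transcript start, chr11:69666171-69666420 on the minus strand of GRCm38.p6, from RefSeq, and the capitals mark GAGGAA, the core letters bound by PU.1, the regulator of myeloid genes.
Cd68: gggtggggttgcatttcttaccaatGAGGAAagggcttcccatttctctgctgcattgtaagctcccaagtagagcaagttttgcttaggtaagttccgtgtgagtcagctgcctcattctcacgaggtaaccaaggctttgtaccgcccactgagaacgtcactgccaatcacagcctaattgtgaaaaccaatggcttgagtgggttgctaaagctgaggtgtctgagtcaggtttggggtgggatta
A promoter window of 300 bases (250 before and 50 after the start) was at hand for 7 of the 10 genes, in 8 windows. The letters GAGGAA on either strand were found in 4 of these windows, those of Cd68, Laptm5, Aif1 and Ms4a7, and in 28.3% of all 32851 windows. In Cd68 they begin 225 bases before the start, and on the opposite strand 30 bases after it. The E2F letters TTTGGCGC, TTTCGCGC, TTTCCCGC and TTTGCCGC, searched on both strands, were in 0 of the 8 windows and in 2.26% of all windows. These matches describe letters in the windows and were not tested as binding sites.

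Lyz2 encodes lysozyme M, the lysozyme of macrophages, and in the widely used lysozyme M Cre mice the recombinase was placed in this gene. Its log2 signals were 14.57, 14.64, 14.60 and 14.42 in controls B, C, D and G. They were 14.53, 14.38, 14.43 and 14.34 on E2f3-deleted arrays A, E, F and H. Control G lay among the E2f3-deleted arrays and replicate A among the controls, so the groups overlapped. The difference was −0.14 (SE 0.069, 95% confidence interval −0.30 to 0.02; limma, adjusted p = 0.394). On the linear scale this interval runs from 18.9% lower to 1.16% higher. The signal was near the ceiling of the scale: it lay 0.10 to 0.42 log2 units below the highest signal of any probe set on the same array. Differences may be compressed there, which was not tested. Without control G the groups did not overlap and the value was −0.19 (limma, adjusted p = 0.398). In that fit 625 of 10916 genes were lower without overlap.

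Lyz1 is the neighbouring lysozyme gene, known from Paneth cells of the gut. Its representative probe set, 1436996_x_at, ran from 14.27 to 14.36 in controls and from 14.28 to 14.32 on the E2f3-deleted arrays (log2 signals). The difference was −0.01 (SE 0.046, 95% confidence interval −0.11 to 0.10; limma, adjusted p = 0.942). A second probe set, 1439426_x_at, ran from 14.07 to 14.11 in controls and from 14.09 to 14.14 in E2f3-deleted macrophages (difference 0.02, SE 0.053). The third, 1450822_at, gave 4.90 to 5.11 in controls and 4.63 to 5.12 in E2f3-deleted macrophages, under the filter on low signals (difference −0.21, SE 0.115; limma, adjusted p = 0.563 over all probe sets). In this last probe set replicates A, F and H lay at 4.69, 4.63 and 4.68 and replicate E at 5.12; without replicate E the value was −0.32 (limma, adjusted p = 0.206). The suffix _x_ marks, in the maker's naming, a probe set with probes that can also bind other transcripts. The bright signals of Lyz1 are therefore uncertain, since they may hold RNA of Lyz2, and the 3 probe sets do not give 1 level for the gene.

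The promoters of Lyz2 and Lyz1 are shown because the widely used Cre line rests on Lyz2 and because the probe sets of Lyz1 may also bind Lyz2 RNA. The stretches are the 130 bases before each transcript start in GRCm38.p6, from RefSeq, both on the minus strand: chr10:117282273-117282402 for Lyz2 and chr10:117292869-117292998 for Lyz1. Capitals mark the positions at which they differ.
Lyz2: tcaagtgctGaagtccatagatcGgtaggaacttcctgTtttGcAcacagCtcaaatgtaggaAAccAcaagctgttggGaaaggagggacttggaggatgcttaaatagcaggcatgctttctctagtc
Lyz1: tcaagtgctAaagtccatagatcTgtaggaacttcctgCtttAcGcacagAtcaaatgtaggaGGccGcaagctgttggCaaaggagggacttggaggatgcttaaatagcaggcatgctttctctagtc
They are identical at 120 of the 130 positions (92.3%), and 1 of the last 60 positions differs. In the 50 bases after the start, 1 position differs. The transcript starts lie 10.6 kb apart. Neither window holds GAGGAA or the E2F letters. Of the lysozyme-like genes, only Lalba, the alpha-lactalbumin of milk, passed the filter (1 of 5 with a probe set). It had a difference of 0.34 with an SE of 0.761, since relative to the control mean replicate H was at −2.21 and replicates A, E and F at 1.07 to 1.31.

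Cd14, the surface protein that binds endotoxin, was the only one of the 10 with a difference above 0. Its log2 signals were 13.59, 13.41, 13.55 and 13.38 in controls B, C, D and G. They were 13.52, 13.43, 13.53 and 13.49 on E2f3-deleted arrays A, E, F and H, all within the range of the controls. The difference was 0.01 (SE 0.064, 95% confidence interval −0.13 to 0.16; limma, adjusted p = 0.935), and the sign turned when control C (−0.01) or control G (−0.02) was left out. Among 8 tested genes of the endotoxin receptor (of 10 listed), 5 were below 0 and 3 above, beside 58.7% of all genes below 0. Their median was −0.02. Lbp, which delivers endotoxin to CD14, had a value of 0.59 (SE 0.309; limma, adjusted p = 0.415) and Ly86, the partner of the receptor-like CD180, of −0.11 (SE 0.074).

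Tyrobp had log2 signals of 13.88, 13.91, 13.81 and 13.90 in controls B, C, D and G, and of 13.89, 13.80, 13.84 and 13.65 on E2f3-deleted arrays A, E, F and H. Only replicates E and H lay below every control, and H was far lower than E. The difference was −0.08 (SE 0.064; limma, adjusted p = 0.589), and −0.03 without replicate H. In a list of receptors, kinases, other adaptors and signalling enzymes drawn up around Tyrobp, 12 of 13 tested genes were lower, beside 58.7% of all genes. Their median was −0.21, and 2 of the 13 were lower at an unadjusted p under 0.05 (beside 6.9% of all genes). These were Trem2, a lipid-sensing receptor (−0.35, SE 0.116; limma, adjusted p = 0.268), and Clec5a, a lectin receptor (−0.33, SE 0.121; limma, adjusted p = 0.293). Relative to the control mean the list median was −0.48 on replicate H and −0.19 to −0.06 on the other E2f3-deleted arrays. Without replicate H, 9 of the 13 were lower, with a median of −0.16, beside 6087 of all 10916 genes lower.

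Laptm5, a lysosomal membrane protein of blood cells, had 5 probe sets whose values differed from one another. Its brightest probe set, 1436905_x_at, ran from 13.17 to 13.26 in controls and from 13.15 to 13.28 in E2f3-deleted macrophages, with a difference of −0.01 (SE 0.050, 95% confidence interval −0.12 to 0.11; limma, adjusted p = 0.971). Probe set 1417721_s_at gave 12.68, 12.85, 12.60 and 12.37 in controls B, C, D and G and 12.37, 12.78, 12.34 and 12.10 in replicates A, E, F and H. Probe set 1426025_s_at gave 12.24, 12.24, 12.06 and 12.03 in the same controls and 12.17, 12.13, 11.96 and 11.60 in the same E2f3-deleted arrays. Over the 8 arrays they spanned 0.75 and 0.64 log2 units, against 0.12 for the brightest one, and both were lowest on replicate H.

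The differences of these Laptm5 probe sets were −0.23 (SE 0.150; limma, adjusted p = 0.616 over all probe sets) and −0.18 (SE 0.127; limma, adjusted p = 0.640). Without replicate H they were −0.13 and −0.06, and without replicate E the first was −0.36, with groups that no longer overlapped. In the gene fit without replicate E, 972 of 10916 genes were lower without overlap. The dim probe set 1447742_at had a difference of −0.11 (SE 0.112), and 1459841_x_at, with group means of 3.06 (controls) and 3.07 (E2f3-deleted), was near the bottom of the scale. The choice of the brightest probe set therefore sets the value of this gene: the mean of its probe sets gave −0.10 in place of −0.01. The brightest probe set carries the suffix _x_, like the bright ones of Lyz1. Its signal may hold RNA of other genes, which was not tested. The values of −0.23, −0.18 and −0.11 came from probe sets without this suffix.

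**Figure D2:**
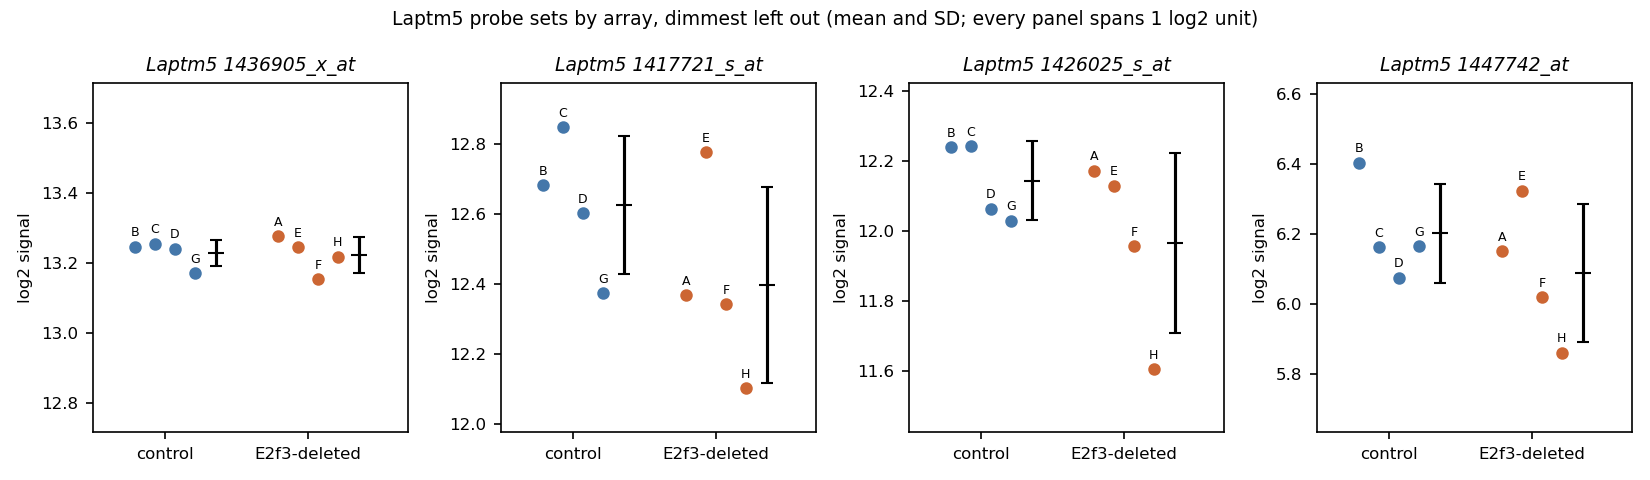
Log2 signal of the 4 brighter Laptm5 probe sets on each array (points, labelled with the replicate letter; blue, control; orange, E2f3-deleted; mean and SD of each group of 4 beside them), with a span of 1 log2 unit in every panel. The left panel, the probe set with the highest mean, is nearly flat, and the other 3 are lowest on E2f3-deleted replicate H.

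Mpeg1, the pore-forming perforin-2, ran from 13.91 to 14.02 (log2 signal) in controls and from 13.85 to 14.01 in the E2f3-deleted group. Only replicate F, at 13.85, lay below the controls. The difference was −0.03 (SE 0.057, 95% confidence interval −0.16 to 0.10; limma, adjusted p = 0.809). The related complement gene C6 was the only pore-forming relative to pass the filter (of 6 with a probe set), with a value of −0.46 (SE 0.439).

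Ms4a7, a membrane protein of the MS4A family, had signals of 13.41, 13.42, 13.34 and 13.47 in controls B, C, D and G and of 13.27, 13.29, 13.35 and 13.34 in replicates A, E, F and H. Control D lay below replicates F and H, and the other 3 controls were above all E2f3-deleted arrays. The difference was −0.10 (SE 0.051, 95% confidence interval −0.21 to 0.02; limma, adjusted p = 0.422). Its dim second probe set, 1445365_at, gave 7.42 to 7.43 in controls B, C and D and 7.77 in control G. It gave 7.19 to 7.26 in replicates A, E and F and 7.54 in replicate H, so that in each group 1 array stood above the other 3. Its difference was −0.20 (SE 0.109; limma, adjusted p = 0.558 over all probe sets), −0.12 without control G, and −0.28 without replicate H. In the MS4A family 6 of 8 tested genes were below 0 (of 12 with a probe set), beside 58.7% of all genes. Their median was −0.16, with −0.16 (SE 0.069) for Ms4a6b and −0.28 (SE 0.144) for Ms4a6c. Some genes of this family are also counted below among the B cell, mast cell and monocyte markers.

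Aif1, which encodes the actin-binding protein IBA1, had log2 signals of 11.82, 11.64, 11.47 and 11.60 in controls B, C, D and G. They were 11.26, 11.54, 11.40 and 11.50 in replicates A, E, F and H. Control D lay below replicates E and H, and replicate A was lowest. The difference was −0.21 (SE 0.092, 95% confidence interval −0.42 to 0.0045; limma, adjusted p = 0.362), with values from −0.26 to −0.15 when single arrays were left out. Aif1 was the only one of the 10 genes with a mean log2 signal under 12. Lcp1, the actin-bundling L-plastin that binds IBA1, had a difference of −0.21 (SE 0.059; limma, adjusted p = 0.234) and no overlap between the groups, beside 4.22% of all genes that were lower without overlap. Pls3, a plastin of non-blood cells, had a difference of 0.88 (SE 0.268; limma, adjusted p = 0.248), also without overlap, beside 465 of 10916 genes that were higher without overlap.

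**Figure D3:**
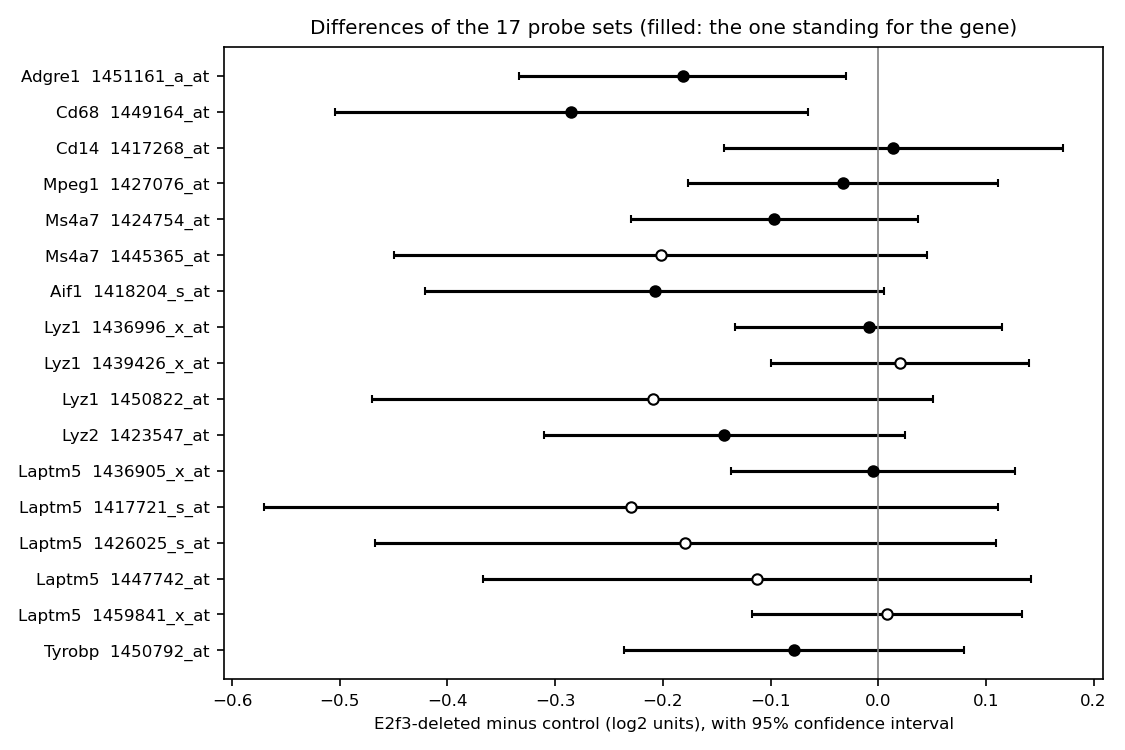
Difference of each of the 17 probe sets, E2f3-deleted minus control in log2 units (x axis), with the 95% confidence interval from the fit over all 45101 probe sets; filled points stand for the gene in the gene fit. The intervals of Adgre1 and Cd68 do not reach 0, and those of the other 15 probe sets include it.

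Since the cells were sorted on F4/80, each gene was also taken relative to Adgre1 on the same array. These compare probe sets on 1 array, so only the difference between the groups has a meaning. Lyz1 minus Adgre1 was 1.43 ± 0.083 in the 4 controls and 1.60 ± 0.083 on the 4 E2f3-deleted arrays (mean ± SD). The difference was 0.17 and the groups did not overlap (exact permutation test, two-sided, p = 0.0286, the smallest that 4 against 4 arrays can give; 0.171 adjusted over the 9 genes). Values of 0.20 for Cd14 (p = 0.0857), 0.18 for Laptm5 (p = 0.0571), 0.15 for Mpeg1 (p = 0.114), 0.10 for Tyrobp (p = 0.257) and 0.09 for Ms4a7 (p = 0.0571) came from the same exact permutation test. Lyz2 (0.04), Aif1 (−0.03) and Cd68 (−0.10) had exact permutation p-values of 0.686, 0.714 and 0.429. None of the 9 passed after adjustment, where 0.171 was the smallest value. For genes whose own difference was near 0, such as Lyz1, Laptm5, Cd14 and Mpeg1, these values restate the difference of Adgre1 with its sign turned and are no separate result.

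The 10 genes did not share 1 pattern across arrays. Relative to the control mean, 5 of the 10 lay below it on replicate A, 8 on replicate E, 9 on replicate F and 9 on replicate H. Replicate A was the lowest of all 8 arrays for 3 genes (Adgre1, Ms4a7 and Aif1) and the highest for 1 (Laptm5). Replicate H was lowest for 3 genes (Cd68, Lyz2 and Tyrobp) and replicate F for 2 (Mpeg1 and Laptm5), while control G was lowest for Cd14 and Lyz1. Only Adgre1, Cd68, Ms4a7, Aif1 and Lyz2, 5 of the 10, lay below the control mean on all 4 E2f3-deleted arrays.

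The genes whose profile over the 8 arrays was closest to that of Adgre1, by root mean square difference after centring each gene on its own mean, were Phka2, a subunit of phosphorylase kinase (0.027 log2 units), Ash2l, of a histone methyltransferase complex (0.029), and Foxred1, which helps assemble respiratory complex I (0.034). For Cd68 they were Cndp2, a cytosolic dipeptidase (0.046), Decr2, a peroxisomal reductase (0.052), and Dpp7, a lysosomal peptidase (0.056), with differences between groups of −0.28, −0.30 and −0.29. For Lyz2 they were Lman2, a cargo lectin of the secretory pathway (0.031), Mrpl16 of the mitochondrial ribosome (0.037) and Hcrt, the hypocretin gene (0.041). Likeness of this kind was common, since 1300 of 10915 other genes came within 0.1 of Adgre1, 896 of Lyz2 and 227 of Cd68.

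A wider list of macrophage identity genes without the 10 was lower in 28 of 28 tested genes (of 30 listed), beside 58.7% of all genes, with a median of −0.16. At an unadjusted p under 0.05, 6 of the 28 were lower, beside 6.9% of all genes, and 0 passed the adjusted threshold in limma. Lgmn, the lysosomal protease legumain, had a difference of −0.29 (SE 0.082; limma, adjusted p = 0.234) and Msr1, a scavenger receptor, of −0.45 (SE 0.132; limma, adjusted p = 0.239). Genes expressed in all leukocytes were lower in 19 of 19 (of 20 listed), with a median of −0.21 and 7 at an unadjusted p under 0.05. The 2 with the smallest p were Lcp1, given above with Aif1, and Vav1, a signalling protein of blood cells (−0.23, SE 0.067; limma, adjusted p = 0.237). Both lists were lowest on replicate H, at −0.40 and −0.43 relative to the control mean, and without replicate H the medians were −0.11 and −0.14. With the endothelial median of each array as a covariate the medians were −0.31 and −0.32. In that fit 26 of 28 and 18 of 19 genes were lower, beside 6544 of all 10916 genes. On that covariate replicates A, E and F (1.07 to 2.01) lay above all controls (−0.45 to 0.44). Of the E2f3-deleted arrays only replicate H (0.02) lay within the control range. The fit therefore leans on replicate H, and it cannot tell group from endothelial signal on the other E2f3-deleted arrays. Grouped by scan file letter, 23 of 28 and 15 of 19 were lower, beside 6298 of all 10916 genes.

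Markers of other cell types differed on the same arrays, and their part in the values above was not tested. Over all 10916 genes tested, 4506 had a difference above 0. Endothelial markers were higher in 16 of 16 tested genes (of 18), with list medians relative to the control mean of 1.99, 1.07, 2.01 and 0.02 on replicates A, E, F and H and of −0.45 to 0.44 in controls. Mast cell and basophil markers were higher in 8 of 9, with 3.99 on replicate H, −0.34 to 1.23 on the other E2f3-deleted arrays and −0.47 to 0.22 in controls. Fibroblast markers were higher in 17 of 18 (1.45 on replicate H, −0.39 to 0.75 on the others, −0.70 to 0.46 in controls), and epithelial markers in 15 of 18 (−0.29 to 0.79, against −0.33 to 0.76 in controls). Without replicate H the list medians of the differences were 0.59 for mast cell and 0.05 for fibroblast markers, in place of 1.31 and 0.53. Of the T and NK cell markers 2 of 11 with a probe set passed the filter, and both were lower, with list medians of −0.27 to −0.13 on the E2f3-deleted arrays and −0.09 to 0.07 in controls. Of the red cell markers 1 of 4 passed and was lower, at −0.76 to −0.51 against −0.47 to 0.72. Grouped by scan file letter, endothelial markers were higher in 13 of 16 (median 0.075 in place of 1.23) and epithelial markers in 3 of 18 (median −0.18 in place of 0.41), and the red cell marker was at 0.084. With the endothelial covariate, epithelial markers were higher in 5 of 18, beside 4372 of all 10916 genes. By scan file letter 4618 of all 10916 genes were higher.

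The other blood cell lists were mixed in sign, beside 4506 of all 10916 genes higher. Those higher were 4 of 6 neutrophil markers, 2 of 5 B cell markers, 4 of 6 dendritic cell markers and 4 of 8 monocyte markers. Their medians were 0.21, −0.63, 0.12 and 0.015. The B cell list was at −1.61 on replicate H, −0.69 to 0.09 on the other E2f3-deleted arrays and −0.76 to 0.98 in controls. Among the monocyte markers 1 of 8 was higher without overlap, beside 465 of all 10916 genes. Gapdh signal at the 3′ end minus the 5′ end, a measure of RNA integrity, was 1.87, 1.48, 1.59 and 1.73 on replicates A, E, F and H and 1.39 to 1.53 in controls. With the endothelial median of each array as a covariate, Cd68 had a value of −0.37 (SE 0.137; limma, adjusted p = 0.271), Lyz2 of −0.23 (SE 0.096), Tyrobp of −0.18 (SE 0.082), Adgre1 of −0.13 (SE 0.090) and Aif1 of −0.04 (SE 0.110). In that fit Cd68 and Lyz2 were the members at an unadjusted p under 0.05 (limma, 0.0281 and 0.0452), and Adgre1 was not (0.194). By that rule 907 of 10916 genes were lower. As for the wider lists, these values lean on replicate H, the only E2f3-deleted array with an endothelial median within the control range.

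**Figure D4:**
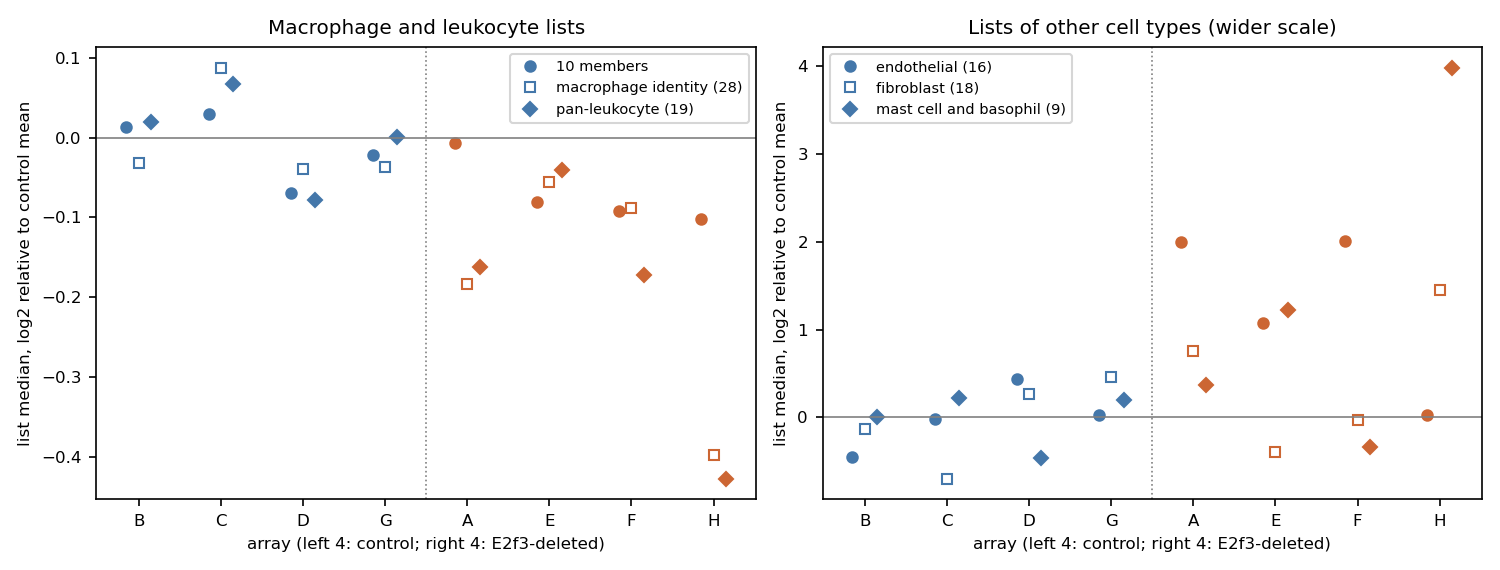
Median of each gene list on each array, in log2 units relative to the control mean (left, the 10 genes, 28 macrophage identity genes and 19 pan-leukocyte genes; right, on a wider scale, lists of other cell types; blue, control; orange, E2f3-deleted). The median of the 10 genes stays between −0.10 and 0.03 while the wider lists reach −0.40 and −0.43 on replicate H, where the mast cell list is at 3.99 and the endothelial list at 0.02.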

How the data were processed

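RNA of F4/80-positive tumour macrophages was measured on 8 one-colour arrays. The authors deposited log2 signals for 45101 probe sets, computed with RMA per the submitters' processing notes; for its version and for which arrays were normalized jointly, no source used here gives an answer. This method makes the arrays' distributions alike. The number of arrays limits the precision.

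Groups came from the titles. Probe sets were named from the platform annotation where it gave 1 gene symbol (34945; 932 gave several and 9160 none); 34741 were found by Entrez identifier in RefSeq GRCm38.p6 and 0 needed updating. Genes with a mean under the 40th percentile were left out, which left 10916. Differences (E2f3-deleted minus control) were fitted in R 4.3.3 by limma 3.58.1 (eBayes after lmFit, p-values two-sided and adjusted by Benjamini-Hochberg over all genes or, where stated, all 45101 probe sets); the fit was tested on simulated data. Signals relative to Adgre1 were tested over all 70 assignments of the arrays.

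The members and lists were chosen with earlier results of these data known, so lists are given as counts and medians without a test. Named genes were the 10 members, the 2 tested genes with the smallest p in each list of relatives, macrophage identity and pan-leukocyte genes, and the 3 most like Adgre1, Cd68 and Lyz2. Lamp1 and Lamp2 were named in addition, as relatives of Cd68. Motifs were chosen after the values were seen. Alternatives were averaging a gene's probe sets, a filter at the 60th percentile or none, centring on the median or a further quantile normalization, weights for arrays, a robust prior with a trend, the endothelial covariate, each array left out, grouping by scan file letter and an equal-variance test.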

Additional observations from a re-analysis of the deposited data

Results flagged for a closer look

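Among 76 groups of 4 values (17 probe sets and 21 list medians in each group), 6 held 1 array far from the other 3; chance gives about 1 in 20 groups. Ms4a7 probe set 1445365_at was 7.77 on control G, with the other controls at 7.42 to 7.43. Lyz1 probe set 1439426_x_at was 14.07 on control G and 14.10 to 14.11 on the other controls. Lyz1 probe set 1450822_at was 5.12 on E2f3-deleted replicate E and 4.63 to 4.69 on the other E2f3-deleted arrays. The macrophage identity list median was 0.088 on control C and −0.04 to −0.03 on the other controls. On E2f3-deleted replicate H the median of Adgre4 and Adgre5 was −0.84, with 0.23 to 0.37 on the others, and Lalba was −2.21, with 1.07 to 1.31 on the others.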

How the results depend on the processing

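None of the 10 genes passed an adjusted p of 0.05 in limma under any of the 18 alternatives (smallest 0.206, for Adgre1 and Cd68; without moderated variances included). Adgre1 (−0.21 to −0.08), Cd68 (−0.37 to −0.22), Ms4a7 (−0.15 to −0.07), Lyz2 (−0.23 to −0.07) and Tyrobp (−0.18 to −0.03) kept their direction in all 18. Grouping by scan file letter left 6 of the 10 below 0, 1 at an unadjusted p under 0.05 and 0 without overlap, with a median of −0.033. Of all 10916 genes, 6298 were then below 0, 347 lower at an unadjusted p under 0.05 and 191 lower without overlap. This grouping gave Mpeg1 0.053, Aif1 0.00063, Laptm5 0.041, Laptm5 probe set 1447742_at 0.079 and Aif1 minus Adgre1 0.080. The count at an unadjusted p under 0.05 was 4 with median centring, beside 1007 of 10916 genes lower by that rule. It was 5 with a trended robust prior, beside 738 of 10916 genes. Cd14 turned to −0.0061 with median centring and −0.0066 with the endothelial covariate, which gave Mpeg1 0.0017 and Laptm5 0.0011; further quantile normalization gave Laptm5 0.0037 and Lyz1 probe set 1439426_x_at −0.0097. The cause was not tested.

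With single arrays left out, the count at an unadjusted p under 0.05 ran from 1 (without control B) to 3, that without overlap from 2 to 4 (without control D, which added Aif1 and Ms4a7), Cd14 from −0.020 to 0.050, Mpeg1 from −0.058 to 0.00087, Lyz1 from −0.022 to 0.0091, Laptm5 from −0.024 to 0.018, its probe set 1459841_x_at from −0.0091 to 0.027, Aif1 minus Adgre1 from −0.076 to 0.0060 and Lyz2 minus Adgre1 from −0.026 to 0.084. Of all 10916 genes, 866 were lower without overlap without control D, and 469 were lower at an unadjusted p under 0.05 without control B. In the fits with a count of 3, 493 (without control G) to 926 (without replicate E) of all genes were lower by that rule. No paired analysis was possible because the replicate letters are not shared by the groups. Bright signals near the ceiling and dim ones near the floor limit what a difference can show.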
